A study of Mus musculus with 2 samples.

Results

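Pou3f1+ Ednrb-high glia are cells of the adult mouse dorsal root ganglion (DRG) that carry mRNA of the transcription factor gene Pou3f1. They also carry a high level of the endothelin B receptor gene Ednrb, and little mRNA of 6 genes that mark other cell classes of the ganglion. Fabp7, which marks satellite glial cells, is only held under a limit. They were chosen by measured values, the counts of 10 genes in single-cell RNA sequencing (scRNA-seq) data, in unique molecular identifiers (UMIs, which count captured mRNA molecules once each). A barcode was taken as a cell if it had over 300 detected genes, at least 2000 UMIs and at most 22% of its UMIs from mitochondrially encoded (mt-) genes. It was a member if Ednrb reached 5 per 10000 UMIs, Pou3f1 had at least 1 UMI, Pou3f1 and Pde10a together had at least 3, Fabp7 stayed under 50 per 10000 UMIs, and Ncmap, Scn7a, Col1a1, Rgs5, C1qa and Flt1 had at most 1 UMI each. The gate took 1254 of 16346 barcodes (7.67%), 676 of 8162 in replicate 1 and 578 of 8184 in replicate 2.

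The study dissociated L4 and L5 DRGs of naive, uninjured wild-type C57BL/6 mice, female and 3 months old, with papain and then collagenase, sorted live cells and sequenced 2 samples with the 10x system. Both samples have the same genotype, age, sex and state, so the comparisons are between cell classes of the same 2 samples and not between conditions. How many animals each replicate holds is not given in the sources used here, so p-values measure the spread between 2 samples. The libraries held 119101743 and 128668771 UMIs over all barcodes, of which the members held 7988261 in replicate 1 and 6961076 in replicate 2.

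Satellite glial cells (SGCs) wrap the cell bodies of sensory neurons, buffer potassium and take up glutamate around them, and are marked by the fatty acid binding protein gene Fabp7. Myelinating Schwann cells wrap single large axons in myelin, and non-myelinating Schwann cells hold bundles of thin axons. Pou3f1, also called Oct6 or SCIP, is known from development, where Schwann cells about to myelinate express it before Egr2 turns on the myelin genes, and cyclic AMP is known to induce it. Ednrb encodes a G protein coupled receptor for endothelins, peptides released by blood vessels among other sources. Pde10a encodes a phosphodiesterase that breaks down cyclic nucleotides.

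The members were compared with 3 glial classes gated under the same limits on genes, UMIs and mt- share. Each class also had at most 1 UMI of each of the 6 marker genes of other classes, its own aside, and both Schwann classes had at least 3 UMIs of their own marker and Fabp7 under 50 per 10000 UMIs. SGCs had Fabp7 at 50 per 10000 UMIs or more (5610 cells, 2807 and 2803 in replicates 1 and 2), myelinating Schwann cells had Ncmap at 5 per 10000 or more (2626 cells, 1298 and 1328), and non-myelinating Schwann cells had Scn7a at 5 per 10000 or more (800 cells, 382 and 418). UMIs were summed per class and replicate and are given as CPM, counts per 1000000 UMIs scaled by library composition, replicate 1 before replicate 2. Log2 fold changes, their standard errors (SE) and Benjamini-Hochberg adjusted p-values come from 1 quasi-likelihood fit in edgeR over the 8 profiles, with a threshold of 0.05. The group was first seen as a group in these same cells, and genes that vary together with Fabp7, Ncmap or Scn7a are drawn apart by the gates themselves. The p-values therefore rate differences between gated classes against the spread between samples, and they are no independent evidence that the group exists.

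Depth and other cells bear on several of the values below. Members had a median of 10188 and 10936 UMIs per cell, between SGCs (15707 and 16484) and myelinating Schwann cells (5236 and 5734). More than 2 times the median of SGCs was held by 1.33% and 0.865% of members and by 4.10% and 3.32% of SGCs. A droplet with an SGC and a myelinating Schwann cell, each of median depth, would stay under that limit. These shares therefore do not measure such doublets. Among barcodes within the limits on genes, UMIs and mt- share, 18 sequences were present in both samples, of which 3 were members in replicate 1, 1 was a member in replicate 2 and 0 were members in both. No doublet caller was run.

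The gate of the non-myelinating Schwann cells held neurons. In each replicate 16 of its barcodes had over 10 per 10000 UMIs of 6 neuron markers, and these barcodes, 4.19% and 3.83% of the class, carried 32.9% and 25.9% of its UMIs. Among members 2 and 0 barcodes passed that limit. The CPM values of genes in non-myelinating Schwann cells are therefore also given without such barcodes, an alternative chosen after the data were seen, and the text calls it "without neurons".

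Markers of other cells were summed in the members, and their sums are per 1000000 UMIs without the scaling by library composition. A list of 12 neuron markers summed to 96.5 and 118 CPM, with Uchl1 the most abundant and none at 0, against 2450 and 4507 CPM in empty droplets, and 12 endothelial markers summed to 13.02 and 13.22 CPM. A list of 12 fibroblast markers summed to 519 and 624 CPM, led by Col1a2 at 295 and 295 CPM, above the 382 and 437 CPM of SGCs (Col1a2 at 141 and 153) and below the 714 and 872 CPM of myelinating Schwann cells. By edgeR 2 of the 12 were higher in members than in SGCs and 2 lower, near the 17.3% and 18.0% called in each direction over all genes. Leukocyte markers summed to 18.9 CPM in replicate 1 and 284 CPM in replicate 2, where 4 members passed 10 per 10000 UMIs of them and where the sum was 33.8 CPM without these 4.

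Of 12 mural cell markers, which summed to 89.9 and 93.4 CPM, Cspg4 made up most. Markers of oligodendrocytes and astrocytes, cells of the central nervous system, summed to 24.4 and 20.3 CPM with Mog, Mobp and Olig2 at 0. An upper estimate from 48 markers of cells outside the glia put RNA of empty droplets at 9.04% and 14.3% of the members' UMIs (10.8% in replicate 2 without the 4 members over the leukocyte limit), against 6.85% and 7.84% in SGCs and 12.9% and 16.0% in myelinating Schwann cells. The part of this RNA in the differences below was tested only as a subtraction, given with the alternative settings.

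The genes of the gate are a description of what was chosen. Pou3f1 (chromosome 4, 124656807 to 124660655, forward strand, GRCm38) stood at 580 and 510 CPM in the members, against 14.2 and 17.8 in SGCs, 34.3 and 35.1 in non-myelinating Schwann cells (51.9 and 47.0 without neurons) and 740 and 850 in myelinating Schwann cells. Pou3f1 was thus not particular to these cells, since myelinating Schwann cells held more of it in both replicates. Pde10a (chromosome 17, 8525372 to 8986648, forward strand) was highest in the members at 972 and 1085 CPM, with 190 and 187 in SGCs and 92.9 and 100 in myelinating Schwann cells. Ednrb (chromosome 14, 103814625 to 103844402, reverse strand) was also highest there at 1846 and 1788 CPM, against 1100 and 1104 in SGCs, 175 and 147 in myelinating and 153 and 160.5 in non-myelinating Schwann cells (219 and 208 without neurons).

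Fabp7 (chromosome 10, 57784881 to 57788450, forward strand) stood at 1898 and 1914 CPM, against 13140 and 13040 in SGCs, whose gate begins where that of the members ends. It was above the 360 and 427 of myelinating Schwann cells. Of the markers given with the rule that the gate did not use, Nkain2, which encodes a protein that binds the sodium pump, stood at 4638 and 4410 CPM, above SGCs (1246 and 1231) and myelinating Schwann cells (3453 and 3554). Non-myelinating Schwann cells held 3303 and 3442 CPM of Nkain2, and 4776 and 4554 without neurons, so the order of these classes depended on the neurons.

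Kcna1, a voltage-gated potassium channel gene, stood at 374 and 391 CPM in the members, above SGCs at 73.7 and 76.7 and below myelinating Schwann cells at 1418 and 1501 and non-myelinating Schwann cells at 1021 and 1143 (1555 and 1550.1 without neurons). Cdh20, a cadherin gene, stood at 328 and 294 CPM, above the 206 and 201 of SGCs. Within single cells the median of Ednrb was 18.0 and 16.8 per 10000 UMIs in members and 9.54 and 9.60 in SGCs, and the highest members reached 65.5 and 66.9. The median of Fabp7 was 15.7 and 16.4 per 10000 UMIs in members and 106 and 109 in SGCs.

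**Figure D1:**
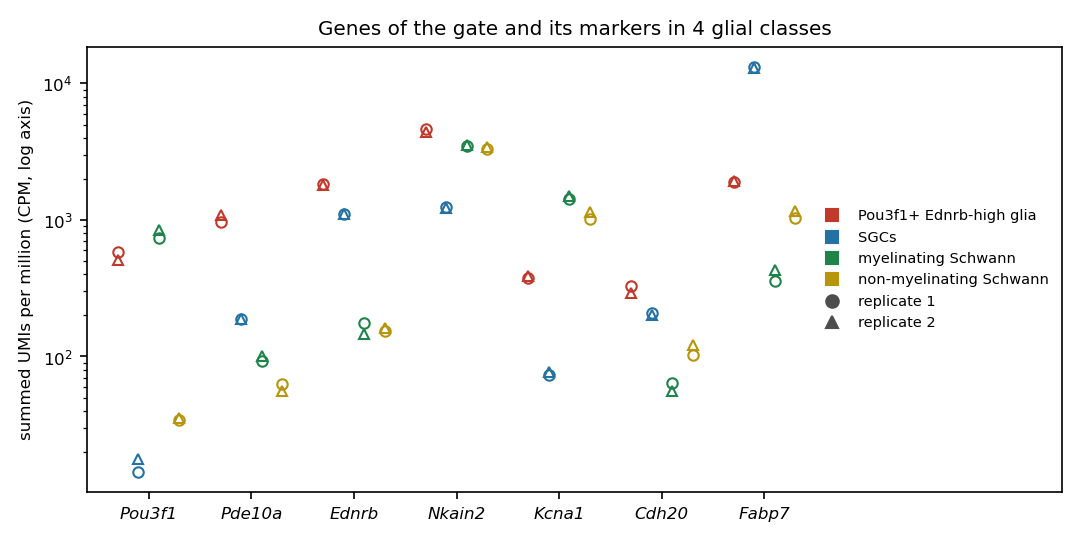
Levels of the gate genes Pou3f1, Pde10a, Ednrb and Fabp7 and of the markers Nkain2, Kcna1 and Cdh20 in 4 glial classes. The y axis gives summed UMIs in CPM on a log scale, circles are replicate 1 and triangles replicate 2. Pde10a and Ednrb are highest in the Pou3f1+ Ednrb-high glia, Pou3f1 is highest in myelinating Schwann cells and Fabp7 in SGCs, while Kcna1 is highest in myelinating Schwann cells as drawn but in non-myelinating ones without neurons.

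The edges of the gate did not fall in an empty range. Members with Ednrb between 5 and 6 per 10000 UMIs numbered 12 and 11, and 20 and 12 barcodes at 4 to 5 stayed outside for Ednrb alone. Members with Fabp7 between 40 and 50 numbered 62 and 50, and 40 and 46 barcodes at 50 to 60 stayed outside for Fabp7 alone. The limits on Pou3f1 and Pde10a alone kept out 803 and 708 barcodes, more than the members themselves, while 39 and 37 members had exactly 3 UMIs of both together. The median member had 4 UMIs of Pou3f1 in each replicate. The markers of other classes alone kept out 119 and 142 barcodes, of which 83 and 95 had over 1 UMI of Ncmap.

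Markers of peripheral glia were present in the members. Sox10, the transcription factor that specifies peripheral glia, stood at 320 and 299 CPM in members, 235 and 217 in SGCs and 321 and 313 in myelinating Schwann cells. Sox10 was higher than in SGCs by 0.46 on the log2 scale (SE 0.063, adjusted p = 0.000191, edgeR), and its difference from myelinating Schwann cells was -0.04 (SE 0.064, adjusted p = 0.701). Foxd3, a transcription factor of neural crest and glia, stood at 138 and 133 CPM in members, 114 and 99.1 in SGCs and 129 and 131 in myelinating Schwann cells, and S100b, a calcium binding protein gene of glia, at 392.3 and 352, 543 and 479.6 and 682 and 663. Of 19 tested cell division genes, 0 were higher than in SGCs by edgeR, also at an unadjusted p under 0.05 and by DESeq2, and 3 were lower, where 17.3% of all genes were higher and 18.0% lower.

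The question the name of the group raises is where the members stand between SGCs and myelinating Schwann cells. A total of 2055 genes separated those 2 classes by a log2 fold change of at least 2, and the members lay between both classes in both replicates for 1454 of them (70.8%). They lay above both for 109 (5.30%), below both for 116 (5.64%), and changed place between replicates for 376. Classes that are gated by opposite limits on Fabp7 and Ncmap leave a class limited in both between them for genes that vary with these, so the count is a description.

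The place was not the same for the genes of each side. For the 1245 genes higher in SGCs, the members stood at a median of 0.609 of the way from the myelinating Schwann level to the SGC level on the log scale (quartiles 0.358 and 0.824), and 777 (62.4%) were nearer the SGC level. For the 810 genes higher in myelinating Schwann cells the median was 0.800 (quartiles 0.594 and 0.957), and 669 (82.6%) were nearer the SGC level. Among the 109 genes above both classes, 98 were genes of the SGC side, and among the 116 below both, 101 were genes of the Schwann side. Members share the upper limit on Ncmap with SGCs and had to hold Ednrb, a gene of SGCs, so the gate bears on these places as well and they too are a description.

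**Figure D2:**
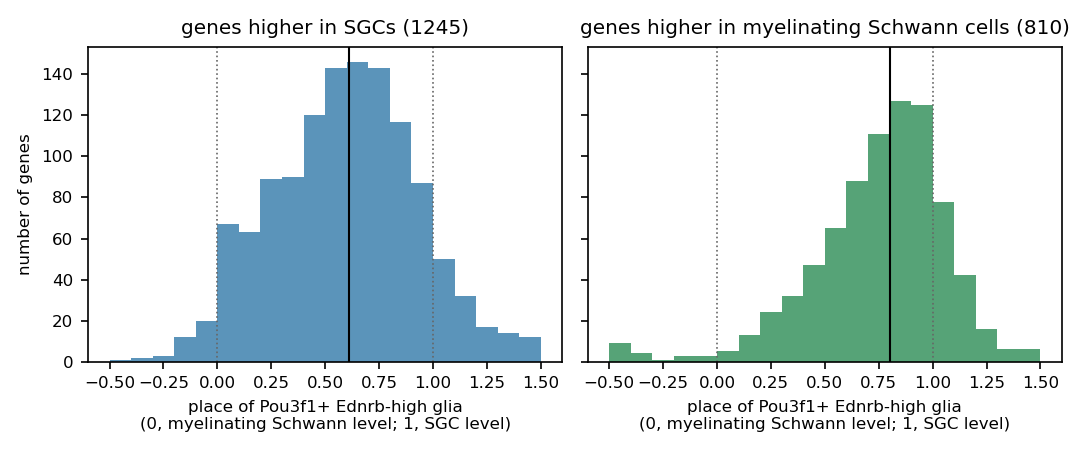
Place of the Pou3f1+ Ednrb-high glia between myelinating Schwann cells and SGCs for 1245 genes higher in SGCs (left) and 810 genes higher in myelinating Schwann cells (right). The x axis is the place on the log2 CPM scale (0, myelinating Schwann level, and 1, SGC level, dotted lines), values beyond the axis are drawn in the end bars, the y axis counts genes, and the solid line is the median, 0.609 on the left and 0.800 on the right.

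Across all 16047 genes counted, 2778 (17.3%) were higher in the members than in SGCs and 2885 (18.0%) lower. Against myelinating Schwann cells 3506 (21.8%) were higher and 3164 (19.7%) lower. Against non-myelinating Schwann cells 3203 (20.0%) were higher and 3578 (22.3%) lower, and without neurons 2541 (16.1%) and 2201 (13.9%) of the genes then tested. The gene lists that follow are read against these shares, and the genes of the gate and its markers are left out of every count.

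Of 39 satellite glial genes, 27 were lower in the members than in SGCs and 5 higher, with a median log2 fold change of -0.88 against -0.004 over all genes. Against myelinating Schwann cells 27 were higher and 5 lower, with a median of 1.88 against 0.009. The losses were very unequal in size. Apoe, which encodes the main lipid carrier of glia, stood at 19146 and 19834 CPM in members, 71407 and 69416 in SGCs and 2648 and 2645 in myelinating Schwann cells, and Glul, the enzyme that turns glutamate into glutamine, stood at 75.7 and 79.1 CPM against 456 and 436 in SGCs.

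The genes of SGCs named in this paragraph kept a larger share of the SGC level, from 45.4% for Gja1 to 77.1% for Kcnj10. Kcnj10, the inward rectifier channel that clears potassium around neurons, stood at 197 and 190 CPM in members, 257 and 246 in SGCs and 35.1 and 33.3 in myelinating Schwann cells. Its level in members was 76.6% and 77.1% of that in SGCs, a difference of -0.38 on the log2 scale (SE 0.073, adjusted p = 0.00196, edgeR). Once RNA of empty droplets was subtracted the difference was about as large at -0.39 but did not pass (adjusted p = 0.0681, edgeR). Ptprz1, a receptor phosphatase gene, and Bcan, which encodes the matrix proteoglycan brevican, stood at 56.6% and 58.4% and at 51.4% and 50.1% of their SGC levels. Gja1, the gap junction gene of connexin 43, stood at 92.9 and 84.0 CPM against 195 and 185 in SGCs, and Slc1a3, a glutamate transporter gene, at 76.2 and 77.7 against 146 and 136.

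A few listed satellite glial genes were not lower at all. Lgr5, a receptor for R-spondins, stood at 373 and 393 CPM in members, 305 and 303 in SGCs and 38.8 and 29.2 in myelinating Schwann cells. It was higher than in SGCs by 0.33 on the log2 scale (SE 0.082, adjusted p = 0.00846, edgeR). The call was lost with the same number of cells per class, at 0.28 (adjusted p = 0.0987, edgeR). With RNA of empty droplets subtracted it was also lost, at 0.38 (adjusted p = 0.191, edgeR), so the difference itself stayed about as large. Kcnh8, a potassium channel gene, was higher than in SGCs by 0.48 (SE 0.055, adjusted p = 5.09e-05, edgeR). The SGC class pools all cells at or above its Fabp7 limit, and members were not compared with separate kinds of SGCs. Whether Lgr5 and Kcnh8, or Hes5 and Acsbg1 below, differ between kinds of SGCs was not tested.

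At the other end stood genes that were nearly confined to SGCs when set against members and myelinating Schwann cells. Dcc, a netrin receptor gene, stood at 2.35 and 1.40 CPM in members and 98.2 and 99.3 in SGCs, Cdh15, a cadherin gene, at 1.48 and 1.68 against 69.0 and 68.9, and Mlc1, a glial membrane protein gene, at 1.86 and 3.21 against 43.1 and 43.9. In myelinating Schwann cells Dcc stood at 1.66 and 1.85 CPM, Cdh15 at 1.41 and 1.27 and Mlc1 at 0.767 and 1.04, close to or below the members. Only a minority of SGCs carried these genes. Unthinned, 24.2%, 34.2% and 35.5% of SGCs in replicate 1 had a UMI of Dcc, Cdh15 and Mlc1. The shares of members were 1.92%, 1.18% and 2.07%. The SGC levels are thus averages over many SGCs without a UMI of the gene. The members therefore kept 76.6% and 77.1% of the SGC level of Kcnj10 but 2.39% and 1.41% of that of Dcc, so that no single fraction described their satellite glial genes.

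In the Notch pathway ligands of a neighbouring cell switch on Hes and Hey repressors. Of 22 tested members of the pathway, 12 were lower than in SGCs, 1 was higher and the others did not pass the test. Hes5 (chromosome 4, 154960923 to 154962371, forward strand), a direct target of Notch, stood at 2.60 and 5.59 CPM in members, 97.6 and 194 in SGCs and 2.68 and 7.53 in myelinating Schwann cells. It was lower than in SGCs by -5.18 on the log2 scale (SE 0.468, adjusted p = 8.02e-06, edgeR), and both replicates of the members lay far below both replicates of SGCs even though SGCs differed between replicates. Thinned to 2000 UMIs, 0.148% (exact 95% interval 0.00374 to 0.821) and 2.25% (1.20 to 3.82) of members had a UMI of Hes5, against 11.3% and 19.5% of SGCs and 0.693% and 1.96% of myelinating Schwann cells, and unthinned shares were 2.07% and 6.06% in members and 32.4% and 45.6% in SGCs.

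Other genes of the pathway differed in direction. Heyl, another repressor, was lower than in SGCs by -3.20 and Nrarp, a feedback inhibitor of the pathway, by -2.81, with Nrarp at 20.3 and 23.1 CPM against 134 and 170. The ligand gene Jag1 stood at 89.3 and 90.0 CPM against 209 and 216, a log2 fold change of -1.24, while the receptor gene Notch1 differed less, at 132 and 126 CPM against 169 and 171. The target gene Hes1 stood at 125 and 89.9 CPM in members, 83.2 and 75.9 in SGCs and 335 and 348 in myelinating Schwann cells, and its difference of 0.44 from SGCs did not pass (SE 0.164, adjusted p = 0.0612, edgeR) but passed under 5 alternative settings, among them the replicate block (adjusted p = 0.0143) and cells thinned to 2000 UMIs (adjusted p = 0.00184). The 1 member of the list that was higher was Maml3, a coactivator gene, at 233 and 239 CPM in members, 25.3 and 26.6 in SGCs and 382 and 399 in myelinating Schwann cells. Against myelinating Schwann cells 8 Notch genes were higher and 6 lower.

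A pair of sterol synthesis genes, described singly with no list of such genes tested, was also lower than in SGCs. Hmgcs1, which opens the pathway, stood at 525 and 650 CPM against 1872 and 1984, and Sqle, which acts later, at 122 and 143 against 365 and 393. Both passed the test. Acsbg1, a fatty acid activating enzyme, stood at 78.4 and 86.4 CPM against 449 and 493 in SGCs.

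On the Schwann side, 21 of 33 tested myelin genes were higher in members than in SGCs and 9 lower, with a median log2 fold change of 0.48. Against myelinating Schwann cells 4 were higher and 24 lower, with a median of -1.21. Prx, which encodes periaxin of the myelin membrane (chromosome 7, 27499324 to 27520214, forward strand), stood at 68.8 and 66.5 CPM in members, 8.85 and 10.3 in SGCs and 1118 and 1139 in myelinating Schwann cells. Its log2 fold change was 2.82 against SGCs (SE 0.082, adjusted p = 3.03e-09, edgeR) and -4.06 against myelinating Schwann cells (SE 0.075, adjusted p = 2.33e-11).

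Several myelin genes stood at a similar fraction of their Schwann level. Prx stood at 6.15% and 5.84% of the myelinating Schwann level. Pllp, a myelin proteolipid gene, stood at 6.13% and 6.57% of that level, and Cldn19, a tight junction gene of the myelin loops, at 7.27% and 7.22%. Pmp22, of compact myelin, stood at 6.96% and 6.70% of it, and Fa2h, which makes the hydroxylated fatty acids of myelin, at 10.3% and 10.6%.

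Other genes of myelinating Schwann cells were nearly missing from the members. Drp2, which anchors periaxin to the dystroglycan complex, stood at 3.34 and 3.91 CPM, 0.617% and 0.685% of the 541 and 571 CPM of myelinating Schwann cells and below the 6.08 and 6.89 of SGCs. Gldn, which clusters sodium channels at nodes, stood at 0.735% and 0.686% of the myelinating Schwann level, and Mag, an adhesion protein of the inner myelin wrap, at 1.36% and 1.78%. Gjb1, the connexin 32 gene of myelin, stood at 18.9% and 14.1% of that level and Gjc3, another connexin gene, at 61.8% and 60.8%, so the listed genes named here held very unequal percentages. The part of Schwann cell RNA in them was not tested. Dhh, which encodes the desert hedgehog signal of Schwann cells to the perineurium, stood at 334 and 308 CPM in members. This was above the 264 and 249 of SGCs and the 208 and 200 of myelinating Schwann cells. Its call against SGCs (adjusted p = 0.0101, edgeR) was lost when cells were thinned, at a log2 fold change of 0.19 (adjusted p = 0.0886, edgeR). It was also lost when RNA of empty droplets was subtracted, where the log2 fold change was 0.37 (adjusted p = 0.0585, edgeR).

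**Figure D3:**
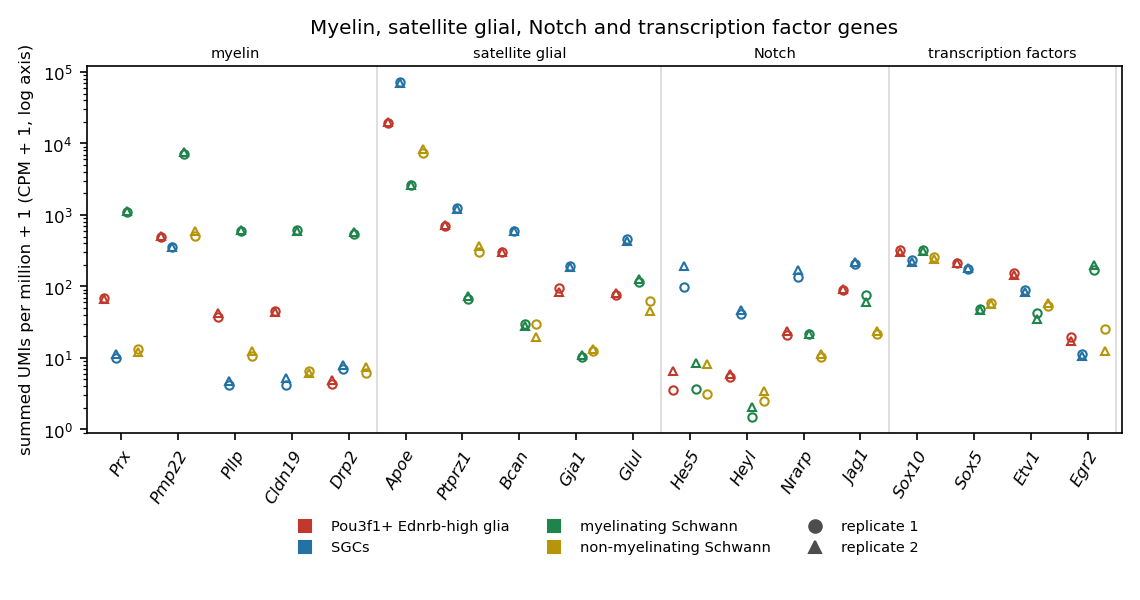
Levels of 5 myelin genes, 5 satellite glial genes, 4 Notch genes and 4 transcription factor genes in 4 glial classes. The y axis gives summed UMIs in CPM plus 1 on a log scale, with circles for replicate 1 and triangles for replicate 2. The members lie between SGCs and myelinating Schwann cells for Prx, Pmp22 and Apoe, and at the low end for Drp2 and Hes5.

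Among 49 tested glial transcription factors, 18 were higher than in SGCs and 10 lower, and 21 were higher than in myelinating Schwann cells and 15 lower. Egr2, the driver of the myelin programme, stood at 18.6 and 16.5 CPM in members, 10.2 and 9.75 in SGCs and 172 and 199 in myelinating Schwann cells. It was higher than in SGCs by 0.81 on the log2 scale (SE 0.190, adjusted p = 0.00629, edgeR) and lower than in myelinating Schwann cells by -3.40 (SE 0.164, adjusted p = 1.98e-08).

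Etv1, a factor of the neuregulin response, was higher than in every other class at 152 and 144 CPM, against 87.0 and 83.5 in SGCs and 41.9 and 34.07 in myelinating Schwann cells. Sox5, at 213 and 215 CPM, was higher than in SGCs by only 0.26 (SE 0.053, adjusted p = 0.00234, edgeR), a call that was lost when every cell was thinned to 2000 UMIs. Zeb2, a repressor of inhibitors of Schwann cell differentiation, stood at 1303 and 1371 CPM against 804 and 760 in SGCs and 945 and 950 in myelinating Schwann cells. Epas1, a hypoxia-responsive factor, and Id3, a target of BMP signals, were lower than in SGCs by -1.42 and -1.20 and higher than in myelinating Schwann cells by 2.16 and 1.06.

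Non-myelinating Schwann genes gave no single direction against SGCs, with 6 of 18 tested higher and 6 lower. Against the non-myelinating Schwann class itself 6 were higher and 12 lower, and 3 and 11 without neurons. L1cam, an adhesion gene of that class, stood at 27.8 and 27.8 CPM in members, 34.05 and 29.6 in SGCs and 203 and 200 in non-myelinating Schwann cells (217 and 220.1 without neurons). Ngfr, the low-affinity neurotrophin receptor gene of immature and non-myelinating Schwann cells, stood at 4.21 and 6.99 CPM in members and 0.620 and 0.676 in SGCs, far below the 19.7 and 28.1 of non-myelinating Schwann cells (22.8 and 24.6 without neurons). With every cell thinned to 2000 UMIs, its call against SGCs was lost, at 1.53 (adjusted p = 0.103, edgeR). Thinned, 0.296% of members and 0.107% of SGCs in replicate 1 had a UMI of Ngfr, so its level was near the floor.

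The members were not between the other classes for every gene, and 405 genes (2.52%) were above all 3 classes in both replicates and in each of the 3 tests. Without neurons the number was 362 (2.29%), of which 298 were shared with the former. The 15 with the largest smallest difference are named here, and all 15 were also above all 3 classes without neurons. The first, Gm2164, is an antisense transcript (chromosome 4, 124528924 to 124657169, reverse strand) that overlaps the start of Pou3f1 over 363 bases (124656807 to 124657169), so it is not independent of the rule. It stood at 66.7 and 73.2 CPM in members, 3.55 and 3.33 in SGCs and 9.45 and 13.1 in myelinating Schwann cells, where Pou3f1 itself was higher than in members.

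Egr3, an immediate early transcription factor (chromosome 14, 70077203 to 70082614, forward strand), stood at 173 and 191 CPM in members, 55.9 and 55.4 in SGCs, 28.1 and 33.7 in myelinating and 23.3 and 22.2 in non-myelinating Schwann cells (35.1 and 29.8 without neurons). Its log2 fold change was 1.71 against SGCs (SE 0.075, adjusted p = 3.38e-08, edgeR) and 2.55 against myelinating Schwann cells. With every cell thinned to 2000 UMIs, 27.5% and 30.4% of members had a UMI of Egr3 against 9.16% and 8.38% of SGCs and 4.47% and 4.22% of myelinating Schwann cells, and unthinned 67.3% and 72.7% of members had one, against 40.3% and 41.0% of SGCs, which are deeper, and 10.3% and 12.5% of myelinating Schwann cells, which are shallower. Immediate early and stress genes respond to dissociation, and of 31 such genes 20 were higher in members than in SGCs and 2 lower, while 7 were higher than in myelinating Schwann cells and 19 lower. Fos stood at 1639 and 1707 CPM in members, 994 and 1122 in SGCs and 5824 and 6716 in myelinating Schwann cells, Atf3 at 121 and 109, 52.1 and 54.9 and 325 and 326, and Hspa1a, a heat shock gene, at 872 and 1052, 398 and 601 and 295 and 460. Egr3 and Hspa1a were thus highest in members among these 3 classes, and Fos and Atf3 in myelinating Schwann cells. The part of dissociation in the level of Egr3 was not tested.

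Of the 15 genes, 3 that encode secreted factors are described together here. Pdgfc, a platelet-derived growth factor gene (chromosome 3, 81036416 to 81214040, forward strand), stood at 224 and 234 CPM in members, 87.8 and 85.3 in SGCs, 90.3 and 77.8 in myelinating and 11.6 and 14.0 in non-myelinating Schwann cells (17.3 and 19.1 without neurons). Bmper, which encodes a secreted modulator of BMP signals (chromosome 9, 23223076 to 23485200, forward strand), stood at 41.9 and 39.4 CPM against 11.1 and 12.1 in SGCs. Fibin, another secreted factor, stood at 57.5 and 55.6 CPM against 21.8 and 20.8 in SGCs and 3.07 and 1.62 in myelinating Schwann cells. For each of these the lowest replicate of the members lay above the highest of every other class.

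Trpm3, a heat-sensitive cation channel (chromosome 19, 22139046 to 22995410, forward strand), stood at 1780 and 1644 CPM in members, against 775 and 786 in SGCs, 502 and 511 in myelinating and 284 and 270.2 in non-myelinating Schwann cells (115 and 139 without neurons). Pde7b, a phosphodiesterase specific for cyclic AMP, stood at 1346 and 1462 CPM against 670 and 648 in SGCs and 346 and 396 in myelinating Schwann cells. Sox4, a transcription factor of immature cells (chromosome 13, 28948919 to 28953713, reverse strand), stood at 279 and 247 CPM against 117 and 105 in SGCs and 108 and 96.3 in myelinating Schwann cells. These 3 genes were thus present in every class and over 2 times as high in members as in SGCs.

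The others of the 15 served several roles. Cspg4, which encodes the proteoglycan NG2 and is also a mural cell marker, stood at 73.5 and 68.5 CPM against 24.5 and 21.6 in SGCs, while Rgs5, a mural marker of the gate, was limited to 1 UMI. Egflam, a matrix protein of synapses that binds dystroglycan, stood at 152 and 152 CPM against 62.1 and 63.7, and Ccnd3, a cyclin gene, at 113 and 124 against 35.9 and 38.2. Galnt6 and B4galnt3, enzymes that add sugars to proteins, and Ammecr1 and Cyth3, an activator of ARF GTPases, had log2 fold changes of 1.56, 1.83, 1.18 and 1.07 against SGCs. With every cell thinned to 2000 UMIs, the call of B4galnt3 against non-myelinating Schwann cells was lost, at 0.92 (adjusted p = 0.0768, edgeR).

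**Figure D4:**
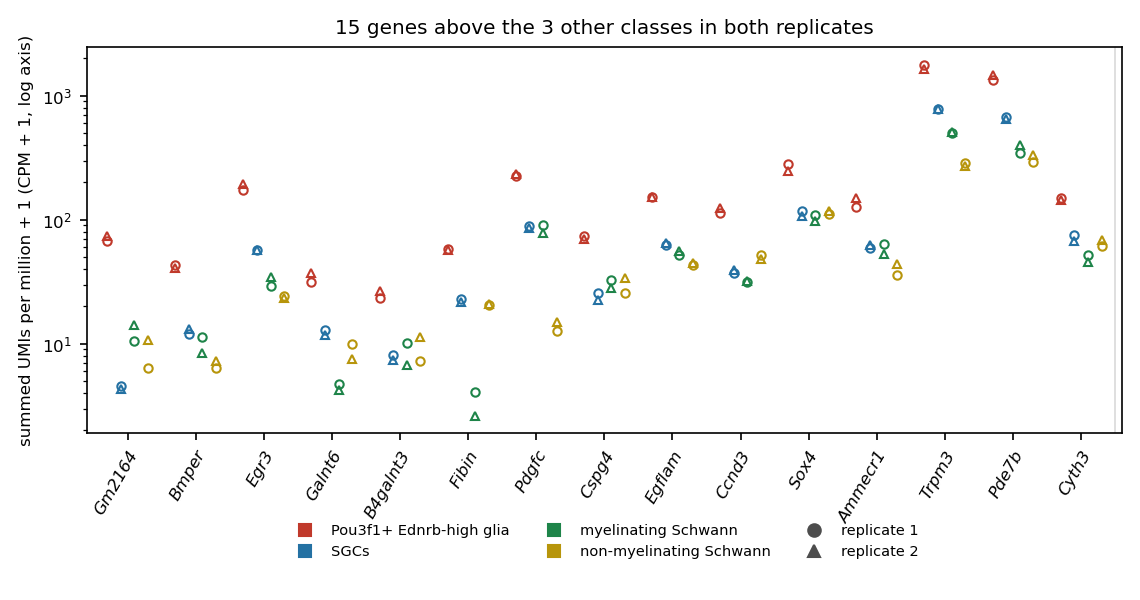
Levels of the 15 genes with the largest smallest difference among those above all 3 other classes. The y axis gives summed UMIs in CPM plus 1 on a log scale, with circles for replicate 1 and triangles for replicate 2. The red symbols of the Pou3f1+ Ednrb-high glia lie highest for each gene, from 1780 and 1644 for Trpm3 to 22.3 and 25.6 for B4galnt3.

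To read such genes in cells that did not choose them, the 50 genes with the largest smallest ratio to the other classes were picked in each replicate and read in the other. All 50 genes picked in replicate 1 were above all 3 classes in replicate 2, and 46 of 50 picked in replicate 2 were so in replicate 1, with 38 genes in both sets. The set of replicate 2 held the neutrophil genes S100a8, S100a9 and Retnlg, and 1490 of the 1498 UMIs of S100a8 and S100a9 in members of that replicate were in 1 cell. The gate itself was the same in both replicates, so the reading describes how stable the genes were between samples.

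In single cells the genes picked in replicate 1 made up a median of 127 per 10000 UMIs of the members of replicate 2, against 53.2 in SGCs, 39.9 in myelinating and 49.4 in non-myelinating Schwann cells. In the other direction the medians were 115, 49.3, 34.2 and 43.9. The 10th percentile of members was 84.5 and 80.6 per 10000 UMIs, and 13.2% and 11.3% of SGCs reached that level. Members and SGCs therefore overlapped in single cells while their medians differed by more than 2 times.

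Cells just outside the gate lay in between. The barcodes kept out by Pou3f1 and Pde10a alone had medians of 87.5 and 80.2 per 10000 UMIs, and 53.9% and 48.9% of them reached the 10th percentile of members. Those kept out by Fabp7 alone had medians of 88.2 and 76.2, and those kept out by markers of other classes alone had medians of 82.4 and 76.8. Those kept out by Ednrb alone, 79 and 81 barcodes, were lowest at 66.7 and 57.2, and 30.4% and 33.3% of them reached that percentile. Median UMIs were 10970 and 10820 for the first of these groups and 5573 and 6536 for the last.

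**Figure D5:**
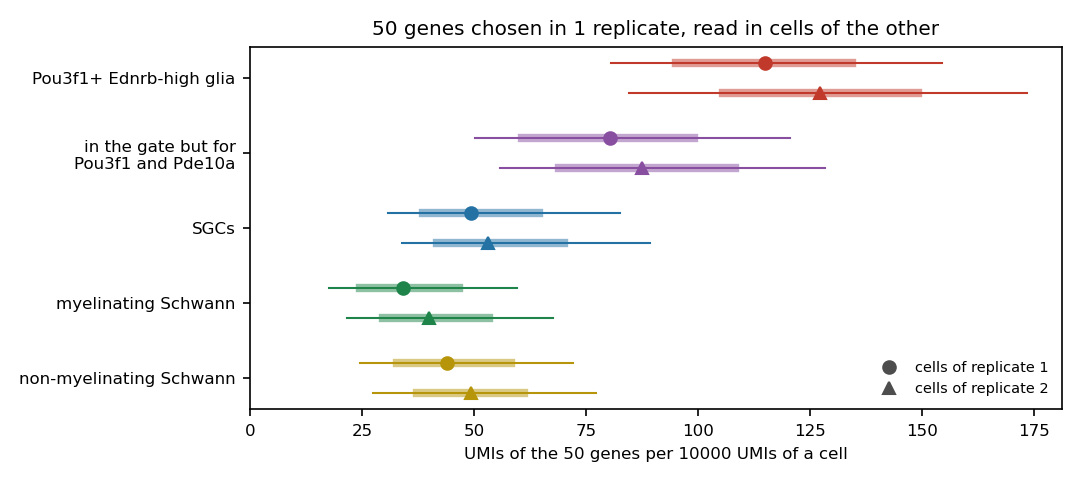
UMIs of the 50 genes picked in the other replicate, per 10000 UMIs of a cell, in 5 groups of cells (rows). Symbols are medians, thick bars quartiles and thin lines the 10th to 90th percentile, with a circle for cells of replicate 1 and a triangle for cells of replicate 2. Members have medians of 115 and 127, cells kept out by Pou3f1 and Pde10a alone 80.2 and 87.5, and SGCs 49.3 and 53.2.

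Below all 3 classes were 229 genes (1.43%), and 207 (1.31%) without neurons, with 146 in both sets. Dhrs3, which reduces retinal to retinol (chromosome 4, 144892827 to 144928209, forward strand), stood at 1.36 and 1.82 CPM in members, 20.0 and 19.5 in SGCs, 10.99 and 9.27 in myelinating and 25.6 and 23.0 in non-myelinating Schwann cells (38.3 and 31.2 without neurons). Of the 10 with the largest smallest difference, Dhrs3, the antisense transcript Gm1992, Lpcat2, Cfap100 and the sodium channel gene Scn2a were below all 3 classes also without neurons. For Gm16083, Frzb, Rapsn and Fry the sign against non-myelinating Schwann cells turned without neurons, and for Ttc9b the call was lost. The calls of Ttc9b against SGCs and myelinating Schwann cells were lost with RNA of empty droplets subtracted. Its call against SGCs was also lost with the same number of cells per class, at -2.09 (adjusted p = 0.0976, edgeR). Gm16083 and Frzb lost their calls against non-myelinating Schwann cells under other limits of the gate too.

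Of 10 tested members of the endothelin system other than Ednrb, 0 were called higher than in SGCs by edgeR, at an unadjusted p under 0.05 or by DESeq2, and 4 were lower by edgeR. Over all genes 17.3% were higher and 18.0% lower. Ednra, the endothelin A receptor gene, stood at 8.91 and 7.13 CPM in members, 13.7 and 13.2 in SGCs and 1.79 and 2.09 in myelinating Schwann cells, and was lower than in SGCs where Ednrb was higher by the rule. Ece1, which encodes the enzyme that makes active endothelin, stood at 96.8 and 102 CPM against 122 and 123 in SGCs and 27.3 and 27.1 in myelinating Schwann cells. Its log2 fold change against SGCs was -0.3, and with every cell thinned to 2000 UMIs it was -0.16 and the call was lost (adjusted p = 0.31, edgeR). Mme, which encodes an enzyme that degrades endothelin, stood at 2.35 and 2.52 CPM in members and 233 and 221 in myelinating Schwann cells, and Plcb1, a phospholipase downstream of Gq, at 29.7 and 22.6 against 716 and 733, with 23.1 and 22.3 in SGCs. The ligand genes Edn1 and Edn3 were too low to be tested.

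In cyclic nucleotide signalling, 10 of 46 tested genes were higher than in SGCs and 10 lower, and 16 were higher than in myelinating Schwann cells and 10 lower. The counts against SGCs were not far from the shares over all genes, where 17.3% were higher and 18.0% lower. Adgrg6, the adhesion receptor that raises cyclic AMP in Schwann cells, stood at 283 and 297 CPM in members, 284 and 282 in SGCs and 141 and 137 in myelinating Schwann cells, a difference from SGCs of 0.03 (SE 0.074, adjusted p = 0.771, edgeR). The phosphodiesterase genes Pde1a and Pde8a were higher than in SGCs by 1.30 and 1.71 and than in myelinating Schwann cells by 2.87 and 1.49. Rapgef3, a cyclic AMP sensor, stood at 0.618 and 0.699 CPM against 41.5 and 45.3 in myelinating Schwann cells.

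Neuregulin and Lgi4 pathways, which carry signals between axons and Schwann cells, had 9 of 21 genes higher than in SGCs and 3 lower, and 8 higher than in myelinating Schwann cells and 2 lower. Adam23, a receptor for Lgi proteins, stood at 196 and 194 CPM in members, 41.0 and 38.6 in SGCs, 40.5 and 44.5 in myelinating and 525 and 571 in non-myelinating Schwann cells (726 and 729 without neurons). The ligand gene Lgi4 was higher than in SGCs by 0.80 and than in myelinating Schwann cells by 1.57, and the receptor gene Erbb3 by 0.60 and 0.66. Adam17, a protease that cleaves neuregulin, stood at 163 and 161 CPM against 92.8 and 88.0 in SGCs and 52.2 and 54.6 in myelinating Schwann cells.

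Of 40 genes of axon contact and nodes, 12 were higher than in SGCs and 12 lower, and 15 and 11 against myelinating Schwann cells. Ank3, the ankyrin G gene, stood at 245 and 271 CPM in members, 53.4 and 42.6 in SGCs and 764 and 739 in myelinating Schwann cells, and Nfasc, which links glia and axon at the node, at 4.82 and 3.77, 1.48 and 1.13 and 373 and 401. Tenm3, a teneurin gene, was higher than in SGCs at 1448 and 1531 against 758 and 731.

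Guidance genes had 21 of 63 higher than in SGCs and 13 lower, 26 and 22 against myelinating Schwann cells, and 7 above all 3 classes, against 2.52% of all genes. Ephb1, an ephrin receptor gene, stood at 162 and 161 CPM in members, 50.8 and 57.3 in SGCs, 78.6 and 82.4 in myelinating and 2.09 and 4.32 in non-myelinating Schwann cells (2.73 and 5.14 without neurons). Sema3g, a semaphorin gene, stood at 81.9 and 73.2 CPM against 45.1 and 45.8 in SGCs, and Sema3d at 14.6 and 16.2 against 5.54 and 4.73. Slit3, a ligand of Robo receptors, was higher than in SGCs by 2.60 and had a difference of -0.25 from myelinating Schwann cells (SE 0.203, adjusted p = 0.359, edgeR).

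Basement membrane genes and their receptors, through which Schwann cells hold their matrix, had 14 of 36 higher than in SGCs and 12 lower, 9 and 16 against myelinating Schwann cells, and 4 above and 4 below all 3 classes. Lama2, the laminin chain of Schwann cell basement membranes, stood at 1182 and 1198 CPM in members, 594 and 583 in SGCs and 585 and 618 in myelinating Schwann cells, and the integrin gene Itgb8 at 1288 and 1332, 782 and 778 and 761 and 725. Dag1, the dystroglycan gene, stood at 887 and 863 CPM, above the 358 and 352 of SGCs and not told apart from the 882 and 929 of myelinating Schwann cells (log2 fold change -0.05, SE 0.058, adjusted p = 0.541, edgeR). The laminin and integrin were thus higher in members than in both classes on either side.

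Among genes of glutamate and GABA handling 5 of 33 were higher than in SGCs and 13 lower, and 13 were higher than in myelinating Schwann cells and 4 lower. The count higher than in SGCs was near the share over all genes, where 17.3% were higher and 18.0% lower. Gria2, an AMPA receptor subunit gene, stood at 23.9 and 28.1 CPM in members, 1.29 and 2.23 in SGCs and 2.43 and 2.32 in myelinating Schwann cells. Non-myelinating Schwann cells held 27.4 and 19.5 CPM of Gria2, and 0.455 and 0.367 without neurons. Grik2, a kainate receptor gene, stood at 1732 and 1931 CPM against 928 and 988 in SGCs and 335 and 367 in myelinating Schwann cells, and Gria4 at 205 and 217 against 160 and 154 in SGCs, a difference of 0.42 (SE 0.221, adjusted p = 0.170, edgeR) that passed under 4 alternative settings.

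Potassium channel genes had 10 of 58 tested higher than in SGCs and 14 lower, and 19 and 7 against myelinating Schwann cells. The count higher than in SGCs was near the share over all genes, where 17.3% were higher and 18.0% lower. Kcna6 stood at 175 and 189 CPM in members against 105 and 97.7 in SGCs and 36.5 and 32.1 in myelinating Schwann cells, and Kcnn4, a calcium-activated channel gene, was below SGCs at 86.6 and 99.2 against 195 and 188. Kcnk1, a leak channel gene, stood at 2.47 and 3.07 CPM against 167 and 180 in myelinating Schwann cells. Of 14 genes of the sodium pump and its partners, 5 were higher than in SGCs and 3 lower, with Fxyd3 at 246 and 242 CPM against 75.5 and 68.7, and the pump subunit gene Atp1b2 at 91.5 and 93.9 against 268 and 260.

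Of 8 tested connexin and pannexin genes, 4 were higher than in SGCs and 2 lower. Gjb1 stood at 15.3 and 12.4 CPM in members, 4.20 and 3.67 in SGCs and 81.0 and 88.0 in myelinating Schwann cells, and Gjc3 at 365 and 334, 149 and 127 and 591 and 549. Of 13 cadherin genes 4 were higher and 5 lower, with Cdh11 at 250 and 270 CPM against 598 and 649 in SGCs and 82.3 and 77.3 in myelinating Schwann cells.

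Of 27 trophic factors, 5 were higher than in SGCs and 11 lower, and 6 were higher than in myelinating Schwann cells and 6 lower. Over all genes 17.3% were higher than in SGCs and 18.0% lower, and 21.8% and 19.7% against myelinating Schwann cells. Only the count lower than in SGCs was far from these shares. Vegfa, the vascular endothelial growth factor gene, stood at 19.8 and 17.3 CPM in members and 121 and 125 in SGCs, and Ptn, the pleiotrophin gene, at 1846 and 1810 against 4090 and 3814. Cntf, a neurotrophic factor of Schwann cells, stood at 9.40 and 11.2 CPM, between 4.37 and 4.62 in SGCs and 120 and 169 in myelinating Schwann cells. Pdgfc was the trophic factor of the list above all 3 classes.

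Members also varied among themselves. Apoe had a median of 156 and 168 per 10000 UMIs and ran from 7.55 to 727 in replicate 1 and from 10.5 to 882 in replicate 2. After thinning to 2000 UMIs, Apoe had a variance of 19.8 and 21.5 times its mean.

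Other genes, Lrrtm4 and Cxcl10 among them, had no UMI in many members and many in a few. Lrrtm4, a synaptic adhesion gene, was at 0 in 376 of 676 and 335 of 578 members and reached 78.2 and 74.2 per 10000 UMIs. Cxcl10, a chemokine gene, was at 0 in 539 and 463 members and reached 194 and 118 per 10000 UMIs. Fos was at 0 in fewer members, 74 and 41, and had a median of 9.09 and 8.68 per 10000 UMIs. Trpm3 had a UMI in all but 8 and 5 members and Pde7b in all but 16 and 14, with medians of 16.0 and 14.7 and of 11.2 and 12.1 per 10000 UMIs.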

How the data were processed

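Per the labels, the authors aligned the reads to mm10 and counted UMIs with Cell Ranger (7.1.0 in the file headers), and deposited raw UMI counts per gene and barcode for 2 samples, with 1762921 and 1832899 barcodes and 32285 genes. Barcodes were limited and gated as given in the report, on single genes and without clustering, and no doublet caller was run. Counts were summed per class and replicate (8 profiles) and fitted with edgeR 4.0.16 (TMM, glmQLFit and glmQLFTest) under R 4.3.3 without a replicate block, over the 16073 genes that reached 10 counts in 2 or more profiles. The procedure was tested on simulated data, of which no values are given here. The 13 genes of the rule and its markers and 13 mt- genes stayed in the fit but out of all counts. Genes listed above (or below) all 3 classes passed an adjusted p of 0.05 in the 3 contrasts and held that order in both replicates.

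Named genes were those of the rule, the 15 above and 10 below all 3 classes with the largest smallest log2 fold change among genes of at least 20 CPM in 1 class, up to 4 per gene list by absolute log2 fold change, and genes whose role the text explains. Some genes that this takes in are not reported here. The members and the 25 gene lists were chosen with earlier results of these data known. Profiles of 1 replicate come from 1 dissociation, which pairs them. Over 3820 genes their deviations correlated at 0.487 (members and SGCs), 0.333 (members and myelinating Schwann cells) and 0.0613 (members and non-myelinating Schwann cells), and the fit with a replicate block was an alternative. Without neurons, 15793 genes were counted. Positions come from GENCODE M21 (GRCm38), where 32158 of 32285 identifiers were found. Intervals are exact binomial (95%) and, like all depth statements, cover counting error only. DESeq2 1.42.0 was run as an alternative. Empty droplets were the barcodes ranked 45000 to 90000 by UMIs.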

Additional observations from a re-analysis of the deposited data

How the results depend on the processing

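The class sizes and depths limit the number of calls. With every cell thinned to 2000 UMIs, where 12402 genes were counted, 1590 genes were higher and 1620 lower than in SGCs, 2205 and 2059 against myelinating and 1457 and 1478 against non-myelinating Schwann cells, 199 were above all 3 classes (165 of them shared with the 405) and 90 below (66 shared). With the same number of cells per class (13539 genes) 1772 were higher and 1899 lower than in SGCs, and 127 were below all 3 classes. Without neurons 2201 genes were lower than in non-myelinating Schwann cells.

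DESeq2 gave 277 genes above and 172 below all 3 classes, and 1892 higher and 2368 lower than in SGCs. The replicate block gave 454 and 244 and moved no count by over 1.5 times, and of the genes named here it changed the call of Hes1 against SGCs (adjusted p = 0.0143, edgeR). Left out 1 at a time, the replicates have no spread and were values only, with 1620 to 1657 genes between both classes. The separating genes were still those chosen with both replicates. Place read in 1 replicate cannot give fewer than the 1454 genes found in both, so these counts are no independent check. Subtracting RNA of empty droplets gave 303 genes above and 185 below all 3 classes. Other limits in the gate gave 952 to 1414 members.

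Over the named genes other than those of the gate and its markers, 3844 recomputed comparisons stayed the same, 22 lost the call, 9 gained it and 7 changed sign. Among the 3844, the 243 without replicate 1 and the 243 without replicate 2 had no test and kept direction only. The rest of the 3844 kept direction and side of the threshold. The 7 were Gm16083 against non-myelinating Schwann cells, at 0.96 when thinned and 0.83 without neurons, Frzb at 0.38 and 1.89, Rapsn at 0.94 and 2.14, and Fry at 0.15 without neurons. The cause was not tested.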

Other observations

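Among the 50 genes picked in each replicate were 5 genes of the extracellular matrix that were chosen for description after their values were seen, with no list of such genes tested. Col11a1, a fibrillar collagen gene, stood at 342 and 339 CPM in members, 171 and 173 in SGCs, 18.8 and 16.7 in myelinating and 89.4 and 77.8 in non-myelinating Schwann cells (104 and 101 without neurons). Itih5, which encodes a protein that stabilises hyaluronan, stood at 727 and 685 CPM against 334 and 328, 377 and 372 and 153 and 162 (227 and 216 without neurons). Efemp1, a fibulin gene, stood at 265 and 253 CPM against 159 and 145 in SGCs and 21.5 and 18.8 in myelinating Schwann cells. Fbn2, a fibrillin gene, and Col6a3, a microfibril collagen gene, had log2 fold changes of 0.99 (SE 0.081) and 1.13 (SE 0.071) against SGCs and 2.52 and 3.25 against myelinating Schwann cells. All 5 were above the 3 other classes in both replicates, with and without neurons (edgeR), while the call of Col6a3 against non-myelinating Schwann cells was lost with every cell thinned to 2000 UMIs.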
